A study of Mus musculus with 37 samples.

Results

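To ask what prior hypoxia of macrophages did to the cells cultured with them, 12 of the 37 libraries of the series were compared. All 12 came from splenocyte cultures of wild-type FVB mice that had shared a well for 48 h with unwashed RAW264.7 cells, an established line of mouse macrophages, and the splenocytes were collected for RNA. In 6 of these libraries the RAW cells had been kept beforehand for 72 h in hypoxia (1% oxygen), and in the other 6 in normoxia (21% oxygen). Each arm held 3 libraries in which recombinant SPP1 at 1 µg/mL (osteopontin, a secreted ligand of integrins and CD44) had been added to the RAW cells and 3 without it, and both SPP1 levels were weighted equally. Brefeldin A, which blocks protein secretion, was added to all cultures before harvest. The libraries were chosen by their sample titles. For setting side by side there were 12 libraries of splenocytes with washed RAW cells, 11 with medium of RAW cells, and 2 of naive splenocytes.

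Low oxygen stabilises hypoxia-inducible factors (HIF), transcription factors that switch on glycolytic enzymes, glucose transporters, angiogenic ligands such as VEGFA, and collagen-modifying enzymes. Macrophages in poorly perfused tumours adapt in this way and change what they secrete. It was the RAW cells that were kept at low oxygen here, before the splenocytes were added, and each library is a bulk RNA measurement in which a change in the number of cells of a type cannot be told apart from a change in RNA per cell.

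The reads were aligned to a human genome although the cells are mouse, so each value counts those mouse reads that matched a human gene. The deposited table gives Ensembl gene IDs without names, and no table pairing human IDs with symbols was at hand. The symbols were therefore assigned from general knowledge of the IDs and have not been checked against an annotation, so the ID is printed with each symbol described. Of the called IDs, 17 that were higher and 6 that were lower were given no symbol. The depth was 818419 to 1302620 counts per hypoxia library and 1041939 to 1328808 per normoxia library, a difference within the spread (two-sided exact permutation test, p = 0.234). Levels are in CPM, the usual unit of counts scaled to a common library size, and 3 counts, the limit that a count of 0 allows, were worth 2.22 to 3.60 CPM in these libraries. One library stood apart: the hypoxia library without SPP1, replicate 2, lay at 62.5 on a first principal component (28.8% of the variance) on which the other 11 lay between -16.5 and 13.8. Its summed level of heat shock and unfolded protein genes was 60700 CPM, the highest of the arm, whose median was 17000 CPM. Values without it are given beside the calls that it ends.

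After hypoxia, 141 gene IDs were higher and 47 were lower of 5193 tested (edgeR quasi-likelihood test, adjusted p under 0.05, here "called"). That is 3.62% of the IDs tested, with 2.72% higher and 0.905% lower. The called IDs that rose were mostly scarce in the normoxia arm, with a median level of 5.02 CPM against 28.0 CPM after hypoxia. Of the 141, 39 had at most 3 counts in every normoxia library. IDs this scarce in normoxia passed the filter on low counts only through libraries of other groups. The same measures were not taken over all IDs tested. The called IDs that fell were abundant, with medians of 177 CPM in normoxia and 91.7 CPM after hypoxia. Their changes were also smaller: the median log2 fold change was 1.88 for the rises and -0.92 for the falls. In 81 of the 141 and 31 of the 47, the hypoxia and normoxia libraries did not overlap. Over all IDs tested, 2.45% had every hypoxia library above and 2.18% every hypoxia library below the normoxia libraries, 4.62% in all. The number of calls depended on single libraries. Leaving out any of the 12 libraries except hypoxia with SPP1 replicate 2 (167 calls) moved it by over 1.5 times, to between 87 without hypoxia with SPP1 replicate 3 and 293 without hypoxia without SPP1 replicate 1. Without the hypoxia library that stood apart 125 were called, 108 higher and 17 lower. No called ID changed sign in any of these fits. They share most of their libraries with the fit that made the calls, so a stable sign was largely fixed in advance.

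**Figure D1:**
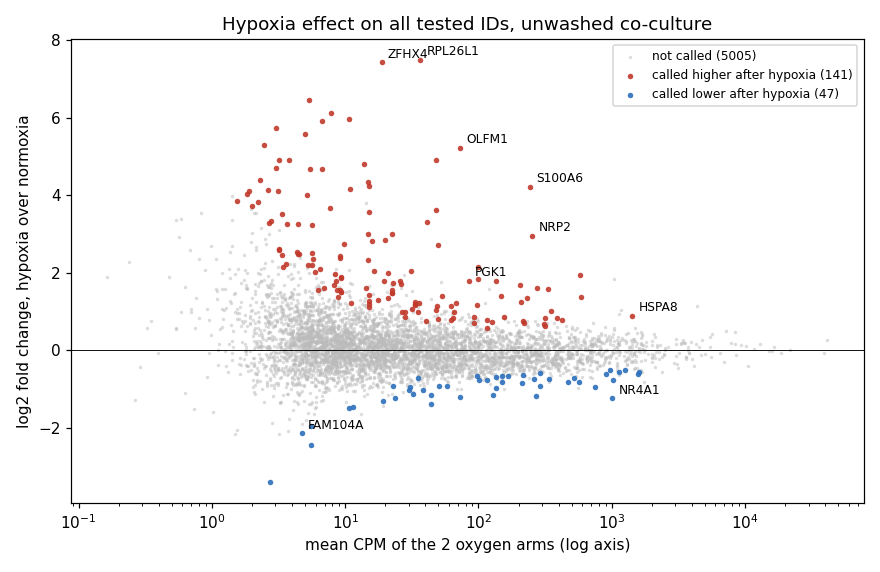
Log2 fold change of hypoxia over normoxia (vertical axis) against the mean CPM of both arms (horizontal log axis) for the 5193 IDs tested in the unwashed co-cultures. Red points are the 141 IDs called higher and blue points the 47 called lower; the rises reach 7.49 and lie mostly at low CPM, while the falls are smaller.

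The most abundant of the 20 ranked rises was S100A6 (ENSG00000197956), a small calcium-binding protein of the S100 family. Its level was 297 to 598 CPM in the hypoxia libraries (median 483) and 18 to 37.0 CPM in the normoxia libraries (median 22.95). Every hypoxia library was thus far above every normoxia library, and the fitted rise was 4.23 ± 0.46 on the log2 scale (± SE throughout, adjusted p = 1.34e-07). S100A4 (ENSG00000196154), a relative of S100A6 linked to cell motility, was at 50.5 to 151 CPM after hypoxia (median 82.9) and 0.771 to 6.26 CPM in normoxia (median 2.54). Its log2 fold change was 4.91 ± 0.67 (adjusted p = 1.28e-05). LGALS3 (ENSG00000131981) encodes galectin-3, a sugar-binding protein that macrophages make in large amounts. It lay between 16.6 and 50.4 CPM after hypoxia and between 0 and 3.13 CPM in normoxia, and rose by 4.36 ± 0.64 on the log2 scale (adjusted p = 3.14e-05). All 3 genes kept their call whichever library was left out.

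Several rises were of transcription and chromatin factors, described together here because the list of mesenchymal and developmental transcription factors holds 4 of them. On that list 4 of 14 members tested were higher (ZFHX4, TBX15, HMGA2 and MEIS2) and 0 lower. Over all IDs tested, 2.72% were higher and 0.905% lower. The list's log2 fold changes ran from -0.66 to 7.43 with a median of 0.14, beside 0.049 over all IDs. Members of the lists were chosen with earlier results of these data known. ZIC2 and PAX6 were named by rank alone. ZFHX4 (ENSG00000091656), a large zinc-finger homeobox protein, had 1 count over the 6 normoxia libraries and 9.37 to 94.3 CPM in the hypoxia libraries. The ratio of summed counts was 282, with a 95% counting interval of 50.1 to 11170. ZIC2 (ENSG00000043355), a zinc-finger factor of neural development, was at 10.4 to 17.6 CPM after hypoxia, and also had 1 count in all in normoxia (ratio 109, interval 19.1 to 4345). PAX6 (ENSG00000007372), the regulator of eye development, ranged from 3.31 to 30.3 CPM and TBX15 (ENSG00000092607), a T-box factor of limb and skeleton, from 1.17 to 20.5 CPM, each against a highest normoxia library below 1 CPM (0.783 and 0.771). HMGA2 (ENSG00000149948), a chromatin protein of embryonic cells, was at 14.1 to 34.5 CPM against 0 to 2.00 CPM. MEIS2 (ENSG00000134138), a partner of HOX proteins, was at 18.3 to 41.0 CPM against 0 to 3.999 CPM. The log2 fold changes of HMGA2 and MEIS2 were 4.82 ± 0.75 (adjusted p = 9.97e-05) and 3.56 ± 0.71 (adjusted p = 0.00162).

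Secreted and membrane proteins made up another share of the ranked rises. OLFM1 (ENSG00000130558), a secreted olfactomedin glycoprotein best known from neurons, was at 85.5 to 241 CPM after hypoxia (median 104) and 0 to 10.1 CPM in normoxia (median 4.35), and rose by 5.23 ± 0.68 (SE) on the log2 scale (adjusted p = 4.33e-06). CP (ENSG00000047457), ceruloplasmin, the copper-carrying ferroxidase of plasma, was at 11.6 to 39.8 CPM. The 6 normoxia libraries held 3 CP counts, all in 1 library (ratio 47.9, interval 16.03 to 235). GAS6 (ENSG00000183087), the ligand of the AXL, MERTK and TYRO3 receptors, was at 2.34 to 23.8 CPM against 0 to 1.48 CPM (ratio 32.2, interval 10.7 to 159). KCNJ2 (ENSG00000123700), an inward-rectifier potassium channel, was at 6.38 to 42.2 CPM against 0 to 2.86 CPM and rose by 4.16 ± 0.71 on the log2 scale (adjusted p = 0.0003). FAT1 (ENSG00000083857), a giant cadherin, was at 2.34 to 12.3 CPM against at most 0.952 CPM.

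The remaining ranked rises were of mixed function. RPL26L1 (ENSG00000037241), a close copy of the ribosomal protein gene RPL26, had the largest fitted change, 7.49 ± 0.78 (adjusted p = 1.34e-07). It was at 30.3 to 148 CPM after hypoxia, and the normoxia arm held 2 counts in all (ratio 250, interval 68.9 to 2074). Reads of the near-identical parent gene could have been counted on it, which was not tested. TNNI2 (ENSG00000130598), the troponin I of fast muscle, was at 21.5 to 43.3 CPM against 0 to 2.00 CPM, with a log2 fold change of 4.24 ± 0.54 (adjusted p = 4.05e-06). CPNE8 (ENSG00000139117), a calcium-dependent membrane-binding copine, and ZCCHC14 (ENSG00000140948) had no count in the normoxia arm. Set against 3 counts over that arm, CPNE8 was at least 26.95-fold higher after hypoxia and ZCCHC14 at least 15.0-fold higher, and the lower 95% counting limits of the ratios were 21.4 and 11.6. CAMK1 (ENSG00000134072), a calmodulin-dependent kinase, NOVA1 (ENSG00000139910), a neuronal splicing factor, and THYN1 (ENSG00000151500) stayed at or below 10.84 CPM in the 12 unwashed libraries. NOVA1 was the 1 ranked rise whose call depended on single libraries, being lost when any of 8 of the 12 was left out.

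**Figure D2:**
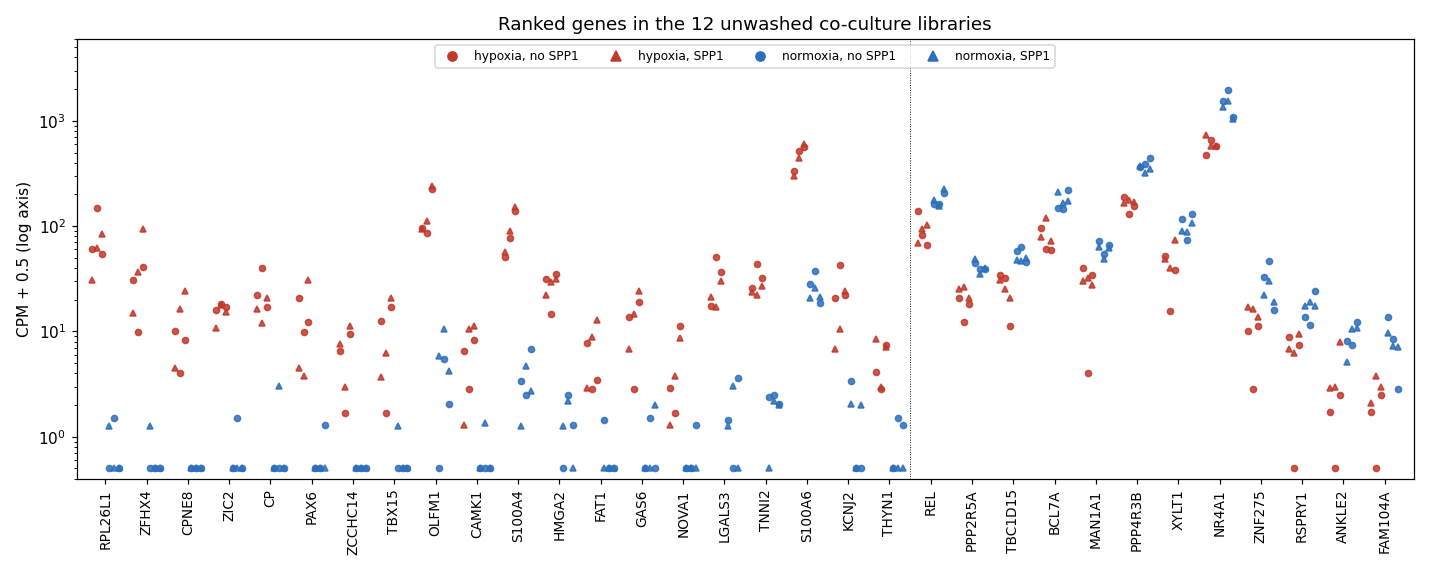
CPM + 0.5 on a log axis for the 20 ranked rises (left of the dotted line) and 12 ranked falls in each of the 12 unwashed co-culture libraries. Red marks are hypoxia and blue marks normoxia, circles without and triangles with SPP1; the hypoxia marks of S100A6 lie between 297 and 598 CPM, and its normoxia marks between 18 and 37.0 CPM.

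The ranked falls had normoxia medians from 7.35 to 1448 CPM and log2 fold changes of -0.98 to -2.14. NR4A1 (ENSG00000123358), an orphan nuclear receptor induced early after antigen-receptor and other stimulation, was the most abundant. Its level was 1031 to 1965 CPM in normoxia (median 1448) and 473 to 731 CPM after hypoxia (median 576), without overlap. Its log2 fold change of -1.24 ± 0.36 had an adjusted p of 0.041 and lost its call without any of 11 libraries, at -1.30 (adjusted p = 0.0587) without the one that stood apart. PPP4R3B (ENSG00000275052), a regulatory subunit of protein phosphatase 4, went from 320 to 445 CPM in normoxia to 131 to 190 CPM after hypoxia (-1.17 ± 0.19, adjusted p = 0.000141). BCL7A (ENSG00000110987), a subunit of SWI/SNF chromatin remodellers, went from 144 to 222 CPM to 59.1 to 120 CPM (-1.14 ± 0.24, adjusted p = 0.00362). Of the 12 ranked falls, only PPP4R3B and BCL7A kept their call whichever library was left out.

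REL (ENSG00000162924), the c-Rel subunit of NF-kappaB, was at 154 to 225 CPM in normoxia and 65.0 to 139 CPM after hypoxia (log2 fold change -0.98 ± 0.26, adjusted p = 0.0308). PPP2R5A (ENSG00000066027), a subunit of protein phosphatase 2A, TBC1D15 (ENSG00000121749), a Rab GTPase-activating protein, MAN1A1 (ENSG00000111885), a Golgi mannosidase, and XYLT1 (ENSG00000103489), which starts proteoglycan sugar chains, had log2 fold changes of -1.02 to -1.21. ZNF275 (ENSG00000063587), RSPRY1 (ENSG00000159579), ANKLE2 (ENSG00000176915) and FAM104A (ENSG00000133193) were scarcer and had log2 fold changes of -1.30 to -2.14. Without the hypoxia library that stood apart, TBC1D15 was the 1 of these 9 genes still called (-1.12, adjusted p = 0.0326). The other 8 kept their sign, with log2 fold changes of -0.89 for MAN1A1 to -1.88 for FAM104A and adjusted p-values from 0.0514 for PPP2R5A to 0.123 for ZNF275. Over all 12 libraries left out in turn, PPP2R5A lost its call without any of 3 and the other 8 without any of 7 to 11.

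Genes of the hypoxia response itself were looked at next. Over all IDs tested, 2.72% were higher and 0.905% lower, with a median log2 fold change of 0.049. On the list of HIF regulators and non-glycolytic targets, 19 of 39 members were tested, of which 2 were higher and 0 lower, with a median log2 fold change of 0.42. The 2 were PLOD2 (ENSG00000152952), a lysyl hydroxylase that prepares collagen for cross-linking, and CITED2 (ENSG00000164442), a HIF-induced protein that restrains HIF. CITED2 was at 76.1 to 637 CPM after hypoxia (median 324) and 110 to 170 CPM in normoxia (median 127), so that the arms overlapped, with a log2 fold change of 1.35 ± 0.34 (adjusted p = 0.0208). In the naive splenocytes it was at 266 and 399 CPM, and in medium at a median of 920 CPM. Its log2 fold change was 0.03 in washed and -0.07 in medium cultures, neither called. PLOD2 was at 0 to 21.1 CPM against 0 to 1.57 CPM (3.26 ± 0.95, adjusted p = 0.0444). PLOD2 was at an adjusted p of 0.16 without the library that stood apart, whereas CITED2 then had one of 0.00169. Single libraries mattered to both, as PLOD2 lost its call without any of 7 of the 12 and CITED2 without any of 5. VEGFA (ENSG00000112715), the angiogenic ligand, did not pass the test at 171 CPM after hypoxia and 110 CPM in normoxia (arm means, log2 fold change 0.56 ± 0.43, adjusted p = 0.543). Its direction turned without the library that stood apart, which held 546 CPM against 38.5 to 179 CPM in the other 5 hypoxia libraries, to a log2 fold change of -0.33 (adjusted p = 0.754). HIF1A (ENSG00000100644), the oxygen-regulated subunit, was at 6.50 and 8.96 CPM (adjusted p = 0.564). The list's median was -0.19 without that library, with 1 of 18 members called.

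On the list of glycolysis and lactate export, 2 of 9 members tested were higher and 0 lower, and 8 of 9 had a positive log2 fold change, with a median of 1.17. Over all 5193 IDs tested, 2.72% were higher, and 2772 had a positive log2 fold change. PKM (ENSG00000067225), pyruvate kinase of the last step, was at 8.20 to 26.9 CPM after hypoxia (median 13.9) and 0.783 to 4.44 CPM in normoxia (median 3.54). The arms did not overlap, and the log2 fold change was 2.43 ± 0.49 (adjusted p = 0.00211). PGK1 (ENSG00000102144), phosphoglycerate kinase, was at 36.1 to 286 CPM against 30.1 to 52.8 CPM (1.79 ± 0.39, adjusted p = 0.00448), and at 1.38 without the library that stood apart (adjusted p = 0.0404). The glucose transporter SLC2A1 (ENSG00000117394) and the enzyme GAPDH (ENSG00000111640) had log2 fold changes of 1.31 ± 0.48 (adjusted p = 0.127) and 1.12 ± 0.37 (adjusted p = 0.0872). SLC2A1 was at 264 CPM in the library that stood apart and at 16.8 to 38.3 CPM in the other 5, against 18.5 to 25.1 CPM in normoxia. Without that library its log2 fold change was 0.22 (adjusted p = 0.859), that of GAPDH 0.86 (adjusted p = 0.256) and the list's median 0.86, with the same 2 genes called. Among nuclear-encoded subunits of oxidative phosphorylation, all 14 members tested had a positive log2 fold change, with a median of 0.48, and 2 were called. SDHB (ENSG00000117118), a subunit of complex II, was at 23.4 to 64.1 CPM against 16.4 to 26.7 CPM. Its log2 fold change was 1.19 ± 0.34 (adjusted p = 0.0428), and the call was lost without any of 9 libraries.

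The core of the site that HIF binds is read as ACGTG, and it was searched on both strands in the RefSeq promoters of mouse genes (GRCm38.p6, 250 bases before to 50 after the gene start), matched by symbol. It stood in 28 of 121 promoters of 97 genes called higher (23.1%), in 8 of 34 promoters of 29 genes called lower (23.5%), and in 19.6% of all 32851 promoters. A match is a description of the letters only. The first match in the promoters of the 2 glycolytic genes that rose, of CITED2, and of S100A6, the most abundant ranked rise, follows 5′ to 3′ within 30 bases of the plus strand, with ACGTG or its reverse complement CACGT in capitals. These 4 genes were chosen after their values were seen. The 4 windows lie at chrX:106186938-106186967, chr9:59657140-59657169, chr10:17723063-17723092 and chr3:90612896-90612925, in that order.
Pgk1: gcgtcgtgcaggACGTGacaaatggaagta
Pkm: ctccgatccggtCACGTccgcgccgcagca
Cited2: gcagccgctgcgCACGTgcagcgcggactc
S100a6: agagtttcgagtCACGTgccagaagggaaa

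**Figure D3:**
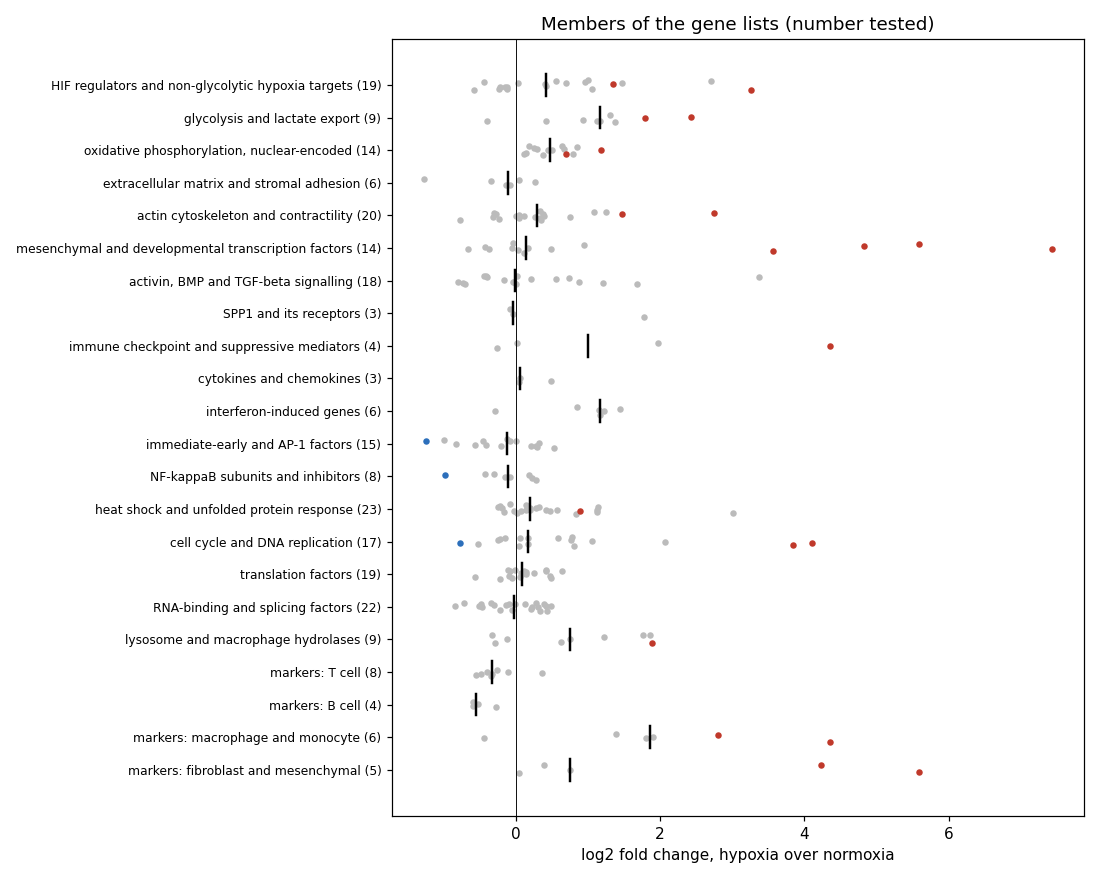
Log2 fold change of hypoxia over normoxia for each tested member of the lists with at least 3 members tested (the number tested stands in brackets). Red points were called higher, blue points lower and grey points neither, and black bars are list medians; the median was 1.17 for glycolysis and -0.55 for B cell markers.

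Over all 30 lists, 251 members were tested, of which 19 were higher and 3 lower. Over all 5193 IDs tested, 2.72% were higher and 0.905% lower, and 2772 IDs had a positive log2 fold change. Members and lists were chosen with earlier results of these data known, so these counts are no test of the lists. In the actin cytoskeleton list 2 of 20 were higher, LMNA (ENSG00000160789), a nuclear lamin, at 8.20 to 23.8 CPM against 1.00 to 3.81 CPM (2.74 ± 0.56, adjusted p = 0.00232), and VIM (ENSG00000026025), the intermediate filament vimentin, at 18.02 to 77.3 CPM against 10.0 to 16.3 CPM. The log2 fold change of VIM was 1.48 ± 0.35 (adjusted p = 0.0118) and 1.01 (adjusted p = 0.102) without the library that stood apart. In the cell cycle list, the mitotic kinases CDK1 (ENSG00000170312) and BUB1 (ENSG00000169679) were higher, each at 0 in at least 1 hypoxia library and at most 9.37 CPM. CDKN1B (ENSG00000111276), the p27 inhibitor of cyclin-dependent kinases, was lower, at 475 to 911 CPM against 1027 to 1580 CPM (-0.78 ± 0.22, adjusted p = 0.0381). The remaining 14 of the 17 members tested did not pass, and the calls of BUB1, CDK1 and CDKN1B were lost without any of 9, 7 and 8 libraries. BUB1 was at 3.45 (adjusted p = 0.171) without the library that stood apart. HSPA8 (ENSG00000109971), the constitutive HSC70 chaperone, was the 1 called of 23 heat shock and unfolded protein genes tested, of which 17 had a positive log2 fold change, and went from 830 to 1207 CPM in normoxia to 1180 to 2534 CPM after hypoxia (0.90 ± 0.25, adjusted p = 0.0331). Without the library that stood apart HSPA8 was at 0.83 (adjusted p = 0.0746) and CDKN1B at -0.68 (adjusted p = 0.0983), the heat shock list's median fell from 0.20 to 0.02 with 12 of 23 positive, and over all libraries left out in turn HSPA8 lost its call without any of 10. CTSA (ENSG00000064601), the lysosomal protective protein, was the 1 called of 9 lysosome genes tested, 6 of them positive (1.88 ± 0.45, adjusted p = 0.0128), and it was at 1.33 (adjusted p = 0.114) without that library. Its call was also lost without normoxia with SPP1 replicate 1. In the immediate-early list NR4A1 was the 1 called of 15 members tested, 9 of them negative (median -0.12), and in the NF-kappaB list REL was the 1 called of 8, of which 5 were negative (median -0.11). No member was called among 18 activin, BMP and TGF-beta genes, 19 translation factors, 22 RNA-binding and splicing factors, 6 matrix genes, 6 interferon-induced genes or 3 cytokines, and the 1 mitochondrially encoded transcript that was tested was not called. Of the immune checkpoint and suppressive mediators 4 were tested, and LGALS3 was the 1 called. Of SPP1 and its receptors, 3 of 10 were tested and 0 were called, among them CD44 (ENSG00000026508) at means of 25.8 CPM after hypoxia and 27.01 CPM in normoxia.

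Markers of the cell types that the cultures could hold were set beside these changes, and their part in them was not tested. Of 24 macrophage and monocyte markers 6 were tested, and 2 of them were higher: LGALS3, and CEBPB (ENSG00000172216), a transcription factor of myeloid cells. Of the 6, 5 had a positive and 1 a negative log2 fold change. Their median was 1.85, and 1.71 without the library that stood apart. CEBPB was at 3.61 to 99.5 CPM after hypoxia and 0.952 to 6.71 CPM in normoxia (2.81 ± 0.53, adjusted p = 0.000743), and at 1.602 (adjusted p = 0.0446) without the library that stood apart. The summed level of the 24 was 62.1 to 172 CPM in the hypoxia libraries and 37.8 to 49.0 CPM in the normoxia libraries. It was 19.3 to 71.6 CPM in the washed cultures, 73.9 to 180 CPM in the medium cultures and 53.7 to 204 CPM in naive splenocytes. The medium cultures were given medium of RAW cells, not the cells. Within the sum, LGALS3 and CEBPB had means of 28.4 and 28.0 CPM after hypoxia against 1.23 and 3.96 CPM in normoxia. CD68 and CD14, defining markers of macrophages, were among 8 of the 24 with no count in any of the 12 libraries. Of 28 fibroblast and mesenchymal markers 5 were tested and 2 were higher, S100A6 and TBX15, with summed levels of 434 to 980 CPM after hypoxia and 146 to 186 CPM in normoxia. S100A6 made up most of this difference: the other 4 tested markers summed to 121 to 458 CPM after hypoxia (median 152) and 117 to 156 CPM in normoxia (median 128). DCN, LUM, PDGFRA, THY1 and PRRX1 had no count. Summed T cell markers were at 130 to 434 CPM after hypoxia and 301 to 397 CPM in normoxia, with 0 of 8 tested members called. Of the 8, 7 had a negative and 1 a positive log2 fold change. Their median was -0.33, and -0.18 without the library that stood apart. CD3D, CD3E, CD4 and CD8A were at 0, so that defining markers of the labelled splenocytes were absent from these counts. Summed B cell markers were at 1140 to 1320 CPM after hypoxia and 1630 to 1950 CPM in normoxia, without overlap, with all 4 tested members negative and 0 called, and MS4A1 and CD79B at 0. Of 9 NK cell, 10 neutrophil and 12 epithelial markers none was tested, with sums of at most 3.60 CPM in any of the 12 libraries. The single tested markers of dendritic, erythroid, endothelial, and muscle or neural crest cells were not called, at summed levels of at most 27.6, 78.5, 22.8 and 18 CPM.

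IDs were called at both SPP1 levels. Without SPP1, 48 IDs were called (44 higher, 4 lower; 0.924%), and with SPP1 24 (all higher; 0.462%). Leaving out 1 library moved these counts to between 9 (without normoxia without SPP1 replicate 1) and 157 (without hypoxia without SPP1 replicate 1), and to between 2 (without normoxia with SPP1 replicate 1) and 26. These comparisons share no library, but both came from the fit over all 37 libraries, with a shared estimate of the spread per ID. The share of all tested IDs with the same sign at both levels was not taken. Of the 48 called without SPP1, 47 had the same sign with SPP1 and 18 were also called there, and across all tested IDs the log2 fold changes at both levels had a Pearson r of 0.544, a description over genes, which are not independent replicates. The edgeR test of the difference called 0 IDs, with 88 at an unadjusted p under 0.05, and DESeq2 also called 0, while without the filter on low counts edgeR called 4 of 22657. S100A6 rose by 4.11 without and 4.34 with SPP1 on the log2 scale, and OLFM1 by 5.92 and 4.54. PKM, at 3.28 (adjusted p = 0.0156) without and 1.59 (adjusted p = 0.692) with SPP1, was called only without it, and its difference was among those that did not pass.

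The same contrast was then set beside the washed cultures and the medium. With washed RAW cells 2 IDs were called (0.0385%), and with medium 4 (0.077%). These counts ranged from 0 to 19 (without normoxia with SPP1 replicate 3) and from 0 to 35 (without normoxia without SPP1 replicate 2) when 1 library of the mode was left out. In the washed cultures the summed heat shock genes reached 88400 CPM, and mitochondrially encoded counts were 0.526% and 0.651% in replicate 1 with SPP1 of hypoxia and normoxia, against 0.0320% to 0.133% in the other 10. A test of the difference itself called 9 IDs for cells against washed (0.173%), all with a larger effect in cells: S100A6, S100A4, OLFM1, LGALS3, and, named here after their values were seen, NRP2, APP, LRP1, AFDN and RBPJ. Against medium it called 25 (0.481%), all with a higher log2 fold change in cells, and 24 of them were also called in cells. The other, ENSG00000082074, was at 0.83 in cells, not called there, and at -1.085 in medium. With 1 library left out the 9 became 4 (without washed normoxia with SPP1 replicate 2) to 25 (without washed hypoxia with SPP1 replicate 1), and the 25 became 10 (without medium normoxia without SPP1 replicate 2) to 50 (without hypoxia without SPP1 replicate 1 of the unwashed cultures). NRP2 (ENSG00000118257), a semaphorin and VEGF co-receptor, was at 333 to 639 CPM after hypoxia and 36.0 to 77.8 CPM in normoxia, and rose by 2.95 ± 0.41 on the log2 scale (adjusted p = 1.40e-05) against -0.02 in washed cultures. APP (ENSG00000142192), the amyloid precursor protein, rose by 2.14 ± 0.33 (adjusted p = 5.47e-05) against -0.09 in washed cultures. LRP1 (ENSG00000123384), a scavenger receptor of the LDL receptor family, rose by 2.71 ± 0.46 (adjusted p = 0.000221) against -0.49. RBPJ (ENSG00000168214), the DNA-binding partner of Notch, rose by 1.58 ± 0.28 (adjusted p = 0.000367) against -0.61, and AFDN (ENSG00000130396), the junction protein afadin, by 3.01 (adjusted p = 0.000284) against -1.17. For the difference in S100A6 the log2 value was 4.35 ± 0.64 (adjusted p = 0.000273) against washed and 3.82 ± 0.59 (adjusted p = 0.000373) against medium.

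Levels, as distinct from the effect of hypoxia, differed widely between the modes. S100A6 was at a mean of 28.6 CPM with washed hypoxic and 30.7 CPM with washed normoxic RAW cells, within the normoxia range of the unwashed cultures. In the medium cultures its median was 1105 CPM, with 57.8 CPM in hypoxia without SPP1 replicate 1 and 328 CPM in normoxia without SPP1 replicate 3, and 828 to 1573 CPM in the other 9. Medium of hypoxic and of normoxic RAW cells both gave such levels, with means of 1129 and 869 CPM. OLFM1, S100A4, HMGA2 and ZIC2 showed the same order, with medium medians of 499, 583, 115 and 33.2 CPM, above their hypoxia medians in the unwashed cultures (104, 82.9, 30.1 and 16.2 CPM). GAS6 did not, with a medium median of 0, a highest medium library of 2.77 CPM and 0 and 20.8 CPM in the naive splenocytes. NR4A1 had its lowest median in medium, at 39.0 CPM, with a range of 17.1 to 706 CPM, and was at 50.8 and 58.6 CPM in the naive splenocytes. In the naive splenocytes S100A6 was at 26.4 and 126 CPM and OLFM1 at 5.86 and 5.21 CPM.

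**Figure D4:**
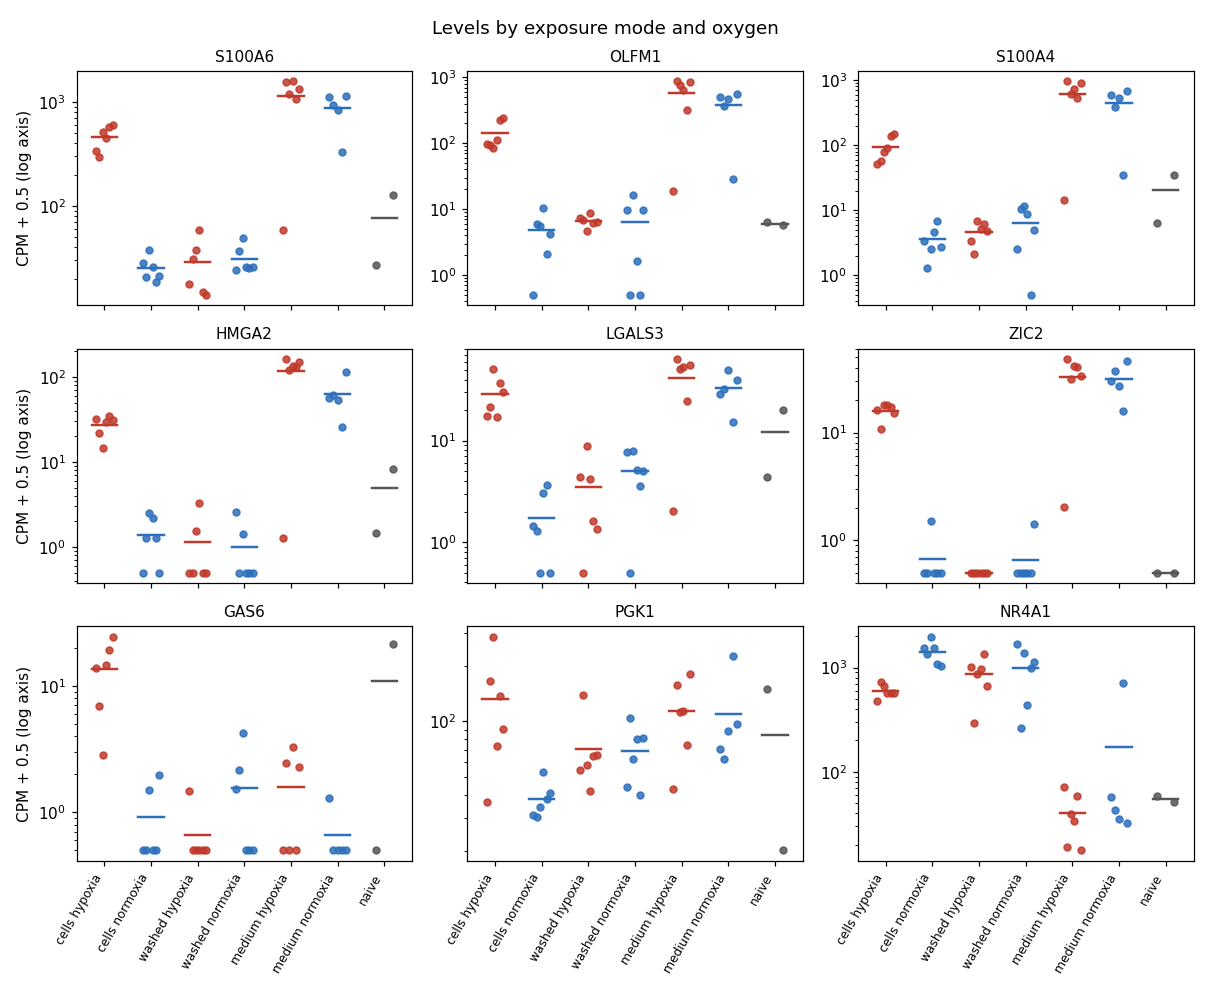
CPM + 0.5 on log axes for 9 genes in each library, by exposure mode (cells is unwashed RAW cells) and oxygen, with naive splenocytes in grey and bars at the mean. S100A6, OLFM1, S100A4, HMGA2, LGALS3 and ZIC2 are high in cells hypoxia and in most medium libraries of both oxygen levels, and low in cells normoxia and in both washed arms; GAS6 is high in cells hypoxia and at most 2.77 CPM in medium.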

How the data were processed

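RNA was measured with a 3′ mRNA-seq kit in mouse splenocyte cultures. Per the series text, the authors trimmed reads with bbduk, aligned them to GRCh38, a human assembly, with STAR 2.7.10b and counted them with featureCounts (Rsubread 2.0.3). The authors deposited raw counts per Ensembl gene ID, all whole. The kit adds molecular identifiers, but whether counting used them, which annotation was read and how reads with several alignments were treated is not given in the sources used here. A mouse read can be counted on a human paralog or processed pseudogene, or be lost.

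The file does not pair IDs with names, and 0 of its 60708 IDs were in the reference gene table, which is a mouse one. The rule for named genes asked for a table and could not be applied as written. Symbols for 804 IDs were instead written from general knowledge of human Ensembl IDs, those of called IDs after the calls had been seen. They have not been checked against an annotation. Of the 188 called IDs, 17 that were higher and 6 that were lower were given no symbol. Genes named are the 20 largest rises and 12 largest falls among called IDs with a symbol and the same sign at all 6 combinations of SPP1 level and replicate number, and every called member of 30 lists, apart from results on some genes that are not reported here. Members and lists were chosen with earlier results of these data known. Human genes' coordinates were not used here.

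Counts were tested in R 4.3.3 with edgeR 4.0.16 (quasi-likelihood F test, 13 group means over 37 libraries, TMM scaling, filterByExpr with a minimum count of 10, Benjamini-Hochberg adjustment, threshold 0.05). Standard errors came from the F statistic. The study's methods say that the experiments were repeated independently, but no source ties the replicates here to separate animals or cultures, so p-values measure the spread between these samples, part of which may be technical. All replicate pairs differed by more than counting noise (chi-square per degree of freedom 2.88 to 30.0). Ratios of summed counts have exact binomial 95% intervals, which cover counting error only. The test was also run on simulated data. Alternatives were RLE scaling, no filter, DESeq2 1.42.0, a replicate block, fewer libraries in the fit, and leaving out each library.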

Additional observations from a re-analysis of the deposited data

Results flagged for a closer look

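The effect of hypoxia differed between exposure modes by a test of the difference, for 9 IDs between unwashed and washed RAW cells and for 25 IDs between unwashed cells and medium.

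A sample far from the other 5 of its arm was looked for in both arms of the 47 named genes by Dixon's test. Of 94 arms, 20 passed the 95% critical value for 6 samples. The rate of about 1 in 20 groups that belongs to this value is for normally distributed values. It does not hold for arms with few counts, so the 20 cannot be set against it. Of the 20, 10 were normoxia arms in which 1 library held all the counts, and such an arm always passes. Their levels were 0.771 (ZFHX4, TBX15, CDK1), 0.783 (PAX6, NOVA1, BUB1), 0.839 (CAMK1), 0.952 (FAT1), 1.00 (ZIC2) and 2.52 CPM (CP). The hypoxia library without SPP1, replicate 2, was the sample in 6 arms. It was high for CEBPB (99.5 CPM, next 25.4), VIM (77.3, next 31.5), CP (39.8, next 21.6) and CTSA (37.5, next 15.9), and low for MAN1A1 (3.51, next 27.1) and RSPRY1 (0, next 5.80). The hypoxia library with SPP1, replicate 3, was high for ZFHX4 (94.3 CPM, next 40.4) and ANKLE2 (7.38, next 2.48). In the normoxia arm with SPP1, replicate 3 was high for VIM (16.3 CPM, next 11.7) and replicate 1 low for TNNI2 (0 CPM, next 1.48).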

How the results depend on the processing

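For the cells contrast DESeq2 called 290 IDs and the fit of the 12 cells libraries alone 283, against 188, with 90 lower instead of 47 in the latter and 8 list members lower instead of 3. With RLE scaling 190 and without the filter 196 (170 higher, 26 lower) were called. Whether the replicate numbers pair the samples was not tested. Of 18 correlations of same-numbered deviations 2 were over 0.1 (range -0.345 to 0.185). The own number correlated best in 16 of 36 comparisons. With the replicate number as a block 180 were called in cells, 1 instead of 2 in washed, and BUB1, ZNF275 and RSPRY1 lost their call, while FAM104A was filtered out. Without SPP1 the count of 48 became 109 without the filter, 101 with the cells libraries alone and 107 with DESeq2, and with SPP1 24 became 46 without the filter. The difference between SPP1 levels had 4 calls without the filter. In washed there were 0 without the filter or with the washed libraries alone, and 1 with DESeq2. In medium there were 2 with RLE scaling, 16 without the filter, 11 with DESeq2 and, chosen after seeing the data, 0 without the 2 medium libraries lowest in S100A6. The difference between cells and washed had 52 without the filter, 15 with those libraries alone and 32 with DESeq2, and that between cells and medium 68 and, with DESeq2, 50. Leaving out 1 library gave 87 to 293 calls in cells, 9 to 157 without SPP1, 2 to 26 with SPP1, 0 to 0 for their difference, 0 to 19 in washed, 0 to 35 in medium, 4 to 25 for cells against washed and 10 to 50 for cells against medium, with 12 to 26 list members higher and 0 to 4 lower. No named gene changed sign. The named genes were chosen from calls on the same libraries, so neither a stable sign nor a kept call is separate support. Of the 20 ranked rises 19 were called in every such fit, of the 12 ranked falls 2, and of the 15 genes named from lists alone 5. The cause of these changes was not tested. Genes under about 3 counts per library, or 2.22 to 3.60 CPM, cannot be told from 0.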

Other observations

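Some called genes outside the lists and the ranking are given here, chosen after their values were seen. FTH1 (ENSG00000167996), the ferritin heavy chain, was at 118 to 968 CPM after hypoxia and 80.6 to 110 CPM in normoxia (log2 fold change 1.68 ± 0.33, adjusted p = 0.00134), and at 1.04 (adjusted p = 0.032) without the hypoxia library that stood apart. Its processed copy FTH1P2 (ENSG00000234975) carried more counts than FTH1, at 342 to 2670 CPM against 173 to 301 CPM, and reads of the one gene may be counted on the other. PRDX4 (ENSG00000123131), a peroxiredoxin of the endoplasmic reticulum, rose by 1.47 ± 0.34 (adjusted p = 0.00956). SOD2 (ENSG00000112096), the mitochondrial superoxide dismutase, rose by 1.03 ± 0.30 (adjusted p = 0.0424) and had an adjusted p of 0.205 without that library.

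SLC25A4 (ENSG00000151729) and SLC25A5 (ENSG00000005022), which exchange ADP for ATP across the inner mitochondrial membrane, were at 350 to 593 CPM against 208 to 263 CPM and at 164 to 444 CPM against 98.7 to 152 CPM, without overlap. MPC2 (ENSG00000143158), a subunit of the pyruvate carrier, was at 43.9 to 84.8 CPM against 28.0 to 32.4 CPM (1.15 ± 0.21, adjusted p = 0.000603). MYCN (ENSG00000134323), a MYC family factor of embryonic and neural cells, was at 26.3 to 136 CPM against 2.31 to 10.5 CPM (3.61 ± 0.52, adjusted p = 1.94e-05). Among the falls, SOS1 (ENSG00000115904), a RAS activator, was at 161 to 219 CPM against 319 to 451 CPM (-0.92 ± 0.16, adjusted p = 0.0003), and SP4 (ENSG00000105866) and CTCF (ENSG00000102974), both DNA-binding proteins, had log2 fold changes of -0.95 and -0.52.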
